A study of Mus musculus with 6 samples.

Results

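The SoxD genes Sox5 and Sox6 and the SoxE genes Sox8, Sox9 and Sox10 were examined for H3K4me1, the monomethylated form of lysine 4 of histone H3, in mouse whisker pads at embryonic day 12. The 5 genes were taken by name from 21755 protein-coding genes of the GENCODE annotation of the GRCm38 (mm10) genome. In CUT&Tag, the assay used, a transposase is brought to the mark by an antibody and cuts out the fragments that are sequenced. Each of the 3 samples was a whisker pad of a wild-type embryo of strain B6/J2, dissociated to single cells, and the pad numbers of the titles serve here as replicates 1, 2 and 3. All groups of the series share strain, age and treatment, and the 3 samples made with control IgG were not analysed here. The values therefore have no control background beside them. Nothing in the labels says that the pads came from separate litters, and the spread between replicates may be partly technical.

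SOX proteins bind the minor groove of DNA through an HMG box and bend it. SOX9 is required for cartilage, where the SoxD proteins SOX5 and SOX6, which lack an activation domain of their own, bind beside it on cartilage matrix genes, and SOX10 directs the glial and pigment cells that arise from the neural crest. Sox9 lies in a region almost free of other protein-coding genes, and enhancers far from the gene on either side are known to act on it. H3K4me1 marks enhancers, both active and poised, and the flanks of active promoters.

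The peak lists held 16788, 12969 and 13998 peaks in replicates 1, 2 and 3. A peak is a continuous stretch of signal, and its total signal is the fragment pileup summed over its bases. The signal was not scaled to sequencing depth. The study states the same nominal depth for all samples, but the lists give no read numbers, so the depth each library reached was not measured here. A peak was therefore ranked by its percentile, the percentage of peaks of the same list with a total signal no higher than its own. Peaks of different replicates that overlapped by at least 1 bp were merged into 19251 regions, of which 8917 held a peak of every replicate. The percentile of a region in a replicate is that of its strongest single peak there. A region that was split into more than 1 peak in a replicate can therefore rank lower in that replicate. A body peak overlapped the gene or the 5 kb on either side of it. A distal peak lay outside that window, up to 1500 kb away, and had a start site of the gene as the nearest protein-coding start site to its midpoint.

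Source names of 4 samples, H3K4me1 replicates 2 and 3 among them, give adult kidney although the titles give whisker pad. A peak in the gene or the 5 kb beside it was found for 24.9%, 22.6% and 19.6% of all protein-coding genes in replicates 1, 2 and 3. Of 10 facial mesenchyme markers, 10, 10 and 9 had such a peak in these replicates, with Alx4 at percentiles 99.8, 99.9 and 99.5. Of 10 adult kidney markers, 3, 3 and 1 had one. Slc12a1 had one in every replicate, at percentiles 57.0, 9.27 and 22.0. Aqp2 (22.7 and 29.8) and Pax8 (19.3 and 13.9) had one in replicates 1 and 2 only. The other 7, Umod, Nphs1 and Slc34a1 among them, had none in any replicate. Of 10 surface ectoderm markers, 7, 7 and 3 had one. Thus 9 of the 10 mesenchyme markers had a peak in every replicate, including those with the kidney source name, and Barx1 had none in replicate 3. Tissue was not split into cell types, so fewer cells with the mark and less of the mark per cell cannot be told apart.

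The sequences at the points of highest signal are shown first, because those points fell at nearly the same base in every replicate at some of these genes. Each window below spans 200 bases around the median place of highest signal of the 3 replicates. The first 5 windows are those of the strongest body and distal regions in which the 3 places lay within 200 bases of each other. The sixth, 263 kb downstream of Sox9, was added after its values were seen. The coordinates are GRCm38, plus strand. Capitals mark the letters ACAAAG or ACAATG, the core bound by SOX proteins, or ATCAAAG, the core bound by TCF/LEF proteins, searched on both strands. The letters of these motifs do not overlap each other.
Sox9 downstream, chr11:113015797-113015996: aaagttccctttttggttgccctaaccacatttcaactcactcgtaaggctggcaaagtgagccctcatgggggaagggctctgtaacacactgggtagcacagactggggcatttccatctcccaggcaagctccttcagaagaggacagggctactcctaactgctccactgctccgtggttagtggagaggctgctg
Sox9 upstream edge, chr11:112779298-112779497: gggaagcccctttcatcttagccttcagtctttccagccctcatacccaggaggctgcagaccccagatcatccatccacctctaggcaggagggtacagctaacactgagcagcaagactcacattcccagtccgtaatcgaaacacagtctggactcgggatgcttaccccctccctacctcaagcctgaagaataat
Sox5 intron, chr6:144169156-144169355: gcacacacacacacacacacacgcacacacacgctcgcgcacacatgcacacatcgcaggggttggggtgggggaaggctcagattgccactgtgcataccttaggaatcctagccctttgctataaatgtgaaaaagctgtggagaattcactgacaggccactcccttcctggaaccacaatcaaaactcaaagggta
Sox6 interior, chr7:115830371-115830570: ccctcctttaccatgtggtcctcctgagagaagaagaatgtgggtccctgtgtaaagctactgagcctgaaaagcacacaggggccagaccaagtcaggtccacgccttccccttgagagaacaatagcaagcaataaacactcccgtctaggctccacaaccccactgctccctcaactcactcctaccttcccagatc
Sox8 downstream, chr17:25555902-25556101: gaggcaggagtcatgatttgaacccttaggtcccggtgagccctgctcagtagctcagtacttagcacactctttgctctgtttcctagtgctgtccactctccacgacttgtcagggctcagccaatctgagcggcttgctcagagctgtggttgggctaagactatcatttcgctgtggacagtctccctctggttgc
Sox9 far downstream, chr11:113044892-113045091: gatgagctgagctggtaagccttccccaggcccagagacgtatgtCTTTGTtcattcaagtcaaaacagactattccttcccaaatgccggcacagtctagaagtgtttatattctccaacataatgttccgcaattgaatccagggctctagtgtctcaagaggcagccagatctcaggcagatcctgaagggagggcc

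At the strongest Sox9 region the places of highest signal were 113015894-113015898, 113015895-113015898 and 113015895-113015898 in replicates 1, 2 and 3. At the upstream edge of Sox9 they were 112779397-112779398, 112779397-112779398 and 112779396-112779398. At the Sox5 intron they spanned 3 bp, and in the sixth window 4 bp. Of the 29 regions at these genes with a peak in every replicate, 4 had the 3 places within 10 bp, against 6.70% of all 8917 such regions. The median distance between the outermost places was 621 bp at these genes and 531 bp over all such regions. A SOX core stood in 7 of the 29 windows and a TCF/LEF core in 0, against 21.2% and 2.59% of 8916 windows of the same length over the genome (1 region lay on a chromosome that was not searched). In the 6 windows printed, only the last held one. A match describes the letters and does not show binding.

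Before the genes are taken one by one, the plain counts were as follows. A body peak was present at 5, 5 and 4 of the 5 genes in replicates 1, 2 and 3, and at 4 of 5 in every replicate. Counted over the gene alone, without the 5 kb, it was 3 of 5 in every replicate. Sox9 then dropped out, because its replicate 3 peak stopped 9 bp before the gene. Over all protein-coding genes the share was 24.9% in replicate 1, 22.6% in replicate 2, 19.6% in replicate 3 and 15.5% in every replicate. Long genes have more room for a peak. Among 230 genes of 500 kb or more, which include Sox5 and Sox6, 50% had a body peak in every replicate, and among genes under 20 kb, which include Sox8, Sox9 and Sox10, 8.35% did. In all, 68 regions were assigned to the 5 genes, of which 29 held a peak of every replicate, 17 of 2 replicates and 22 of a single replicate.

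Sox5 encodes a SoxD protein that pairs with SOX6 on cartilage genes. The gene (chr6:143828425-144781977, minus strand) is 953.6 kb long, of which 572.4 kb lies 5′ of the first protein-coding start site, where no transcript of the gene annotated as protein-coding starts. Sox5 had 16, 11 and 14 body peaks in replicates 1, 2 and 3 (13.7 ± 2.52, SD, n = 3), which covered 5.07%, 4.57% and 6.22% of its window. Most of them lay close together. Between the first protein-coding start site and the 3′ end, 11, 7 and 10 peaks covered 8.73%, 8.19% and 11.6% of the bases, and 5′ of that start site 5, 4 and 4 peaks covered 2.72%, 2.24% and 2.76%. Of the 16 body regions, 8 held a peak of every replicate, and 7 of these 8 lay from the start site to 166 kb into the transcribed part. The exception was an intron region 545 kb upstream (chr6:144752228-144756635), at percentiles 67.1, 49.3 and 57.0.

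The region over the Sox5 start site (chr6:144201310-144212024) reached percentiles 75.6, 60.2 and 94.2. It was split into 2, 2 and 1 peaks in replicates 1, 2 and 3, so these ranks are of unlike stretches. The peak over the start site itself ranked at 72.6, 60.2 and 94.2. Over all its peaks, the region took 0.0119%, 0.0109% and 0.0181% of the summed signal of each list. The body region with the highest mean percentile lay in an intron 40.3 kb into the transcribed part (chr6:144165548-144172971). It held 1 peak of each replicate, at 89.2, 85.6 and 89.1 (88.0 ± 2.03, SD, n = 3), with 0.0110%, 0.0118% and 0.0131% of the signal. Its middle is the Sox5 window printed above. A distal peak was found in replicate 1 only, 519 kb downstream at percentile 15.2, so 0 distal regions held a peak of every replicate. The 3 genes most like Sox5 in body coverage and distal peak number over the 3 replicates (the smallest Euclidean distance over 6 standardised values) were Ptpn13, Mrtfa and Slc16a10. Their distances were 0.108, 0.146 and 0.226.

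Sox6 encodes the other SoxD protein of cartilage, which also acts in muscle and red blood cells. The gene (chr7:115470872-116038796, minus strand) is 567.9 kb long. It had 14, 10 and 18 body peaks (14 ± 4, SD, n = 3), which covered 8.68%, 7.04% and 12.7% of its window. Of 17 body regions, 9 were present in every replicate. One lay over the start site and the other 8 lay 210 to 551 kb downstream of it, with none present in every replicate in between. Coverage of Sox6 exceeded that of Sox5 in 3 of 3 replicates, by 4.18 ± 2.05 percentage points (SD, n = 3; exact paired sign-flip permutation test, two-sided, p = 0.25, the smallest p that 3 replicates allow). The Sox5 window includes the sparsely covered 572.4 kb 5′ of its first protein-coding start site. From that start site to the 3′ end, Sox5 coverage was 8.73%, 8.19% and 11.6%, so against this stretch Sox6 was higher in replicate 3 only. Among the 230 genes of 500 kb or more, 18 had more body regions present in every replicate than Sox6 and 24 more than Sox5, and the median of these genes was 0.

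The region over the Sox6 start site (chr7:116029245-116041358) stood at percentiles 73.2, 91.3 and 72.1. It also covered the start of 1110004F10Rik, 0.653 kb away, so its signal cannot be assigned to Sox6 alone. Sox5 and Sox6 had their first start site under a peak in every replicate, which 1.82% of 21670 genes with such a site did, and 4.06% had a peak within 1 kb of it. The strongest body region lay 210 kb into Sox6 (chr7:115824055-115833217) at percentiles 83.4, 79.5 and 77.6 (80.1 ± 2.98, SD, n = 3). An internal start site stood inside it at 115824710, and was under a peak in replicates 2 and 3 and 579 bp from one in replicate 1. A region at the 3′ end of the gene (chr7:115483710-115491305) followed with 87.7, 58.7 and 91.7. It was split into 1, 2 and 1 peaks, and the region at 210 kb into 1, 1 and 2. Over all peaks, the 3′ region took 0.0101%, 0.0104% and 0.0152% of the summed signal of each list. The region at 210 kb took 0.00827%, 0.00941% and 0.0153%, so by this share the 3′ region was higher in replicates 1 and 2.

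A further internal start site, at 116031047, lay inside the region over the first one and was under a peak in every replicate. The promoters of these 3 start sites are shown because no other start site of Sox6 was under a peak. The sequences are from RefSeq (GRCm38.p6), the 250 bases before the start, minus strand, marked as above.
Sox6 first start, chr7:116038745-116038994: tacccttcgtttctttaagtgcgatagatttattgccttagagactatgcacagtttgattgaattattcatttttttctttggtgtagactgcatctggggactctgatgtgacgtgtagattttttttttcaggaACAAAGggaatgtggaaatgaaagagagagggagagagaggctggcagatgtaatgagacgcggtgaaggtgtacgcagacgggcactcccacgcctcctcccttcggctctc
Sox6 near internal start, chr7:116031048-116031297: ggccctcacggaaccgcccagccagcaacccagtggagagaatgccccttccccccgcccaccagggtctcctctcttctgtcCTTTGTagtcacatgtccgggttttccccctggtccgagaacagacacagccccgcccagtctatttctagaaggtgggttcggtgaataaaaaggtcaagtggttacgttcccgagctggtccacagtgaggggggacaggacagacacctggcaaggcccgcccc
Sox6 far internal start, chr7:115824711-115824960: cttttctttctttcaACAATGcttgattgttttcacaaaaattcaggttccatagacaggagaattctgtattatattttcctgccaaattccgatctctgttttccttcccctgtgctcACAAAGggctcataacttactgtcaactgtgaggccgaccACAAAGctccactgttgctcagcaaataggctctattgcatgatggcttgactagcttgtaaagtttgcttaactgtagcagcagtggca

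The first promoter and the near internal one held 1 SOX core each and the far internal one held 3, and none of them held a TCF/LEF core. A SOX core stood in 25.2% and a TCF/LEF core in 3.21% of the 32851 RefSeq promoters cut to the same 250 bases.

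Distal peaks of Sox6 numbered 6, 4 and 6, all on the downstream side, since 1110004F10Rik begins directly upstream. They covered 6.43%, 6.996% and 7.38% of the 237.7 kb that belong to Sox6 there (6.93 ± 0.477, SD, n = 3), a narrow spread. Of 8 distal regions, 4 held a peak of every replicate. The strongest (chr7:115377869-115383243), 658 kb from the first start site, reached percentiles 78.1, 79.4 and 86.8, and the farthest (chr7:115251180-115253808), at 786 kb, only 24.8, 3.78 and 1.42. These distances are from the first start site, but the regions were assigned by any Sox6 start site, internal ones included. With the first start site of each gene alone, the mean number of SoxD distal peaks fell from 5.67 to 1.67. A distal region with a peak of every replicate was found for 7.54% of protein-coding genes. Ldb2, Sesn3 and Lpin2 were the genes most like Sox6 by the measure used for Sox5, at distances of 0.646, 0.670 and 0.756.

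**Figure D1:**
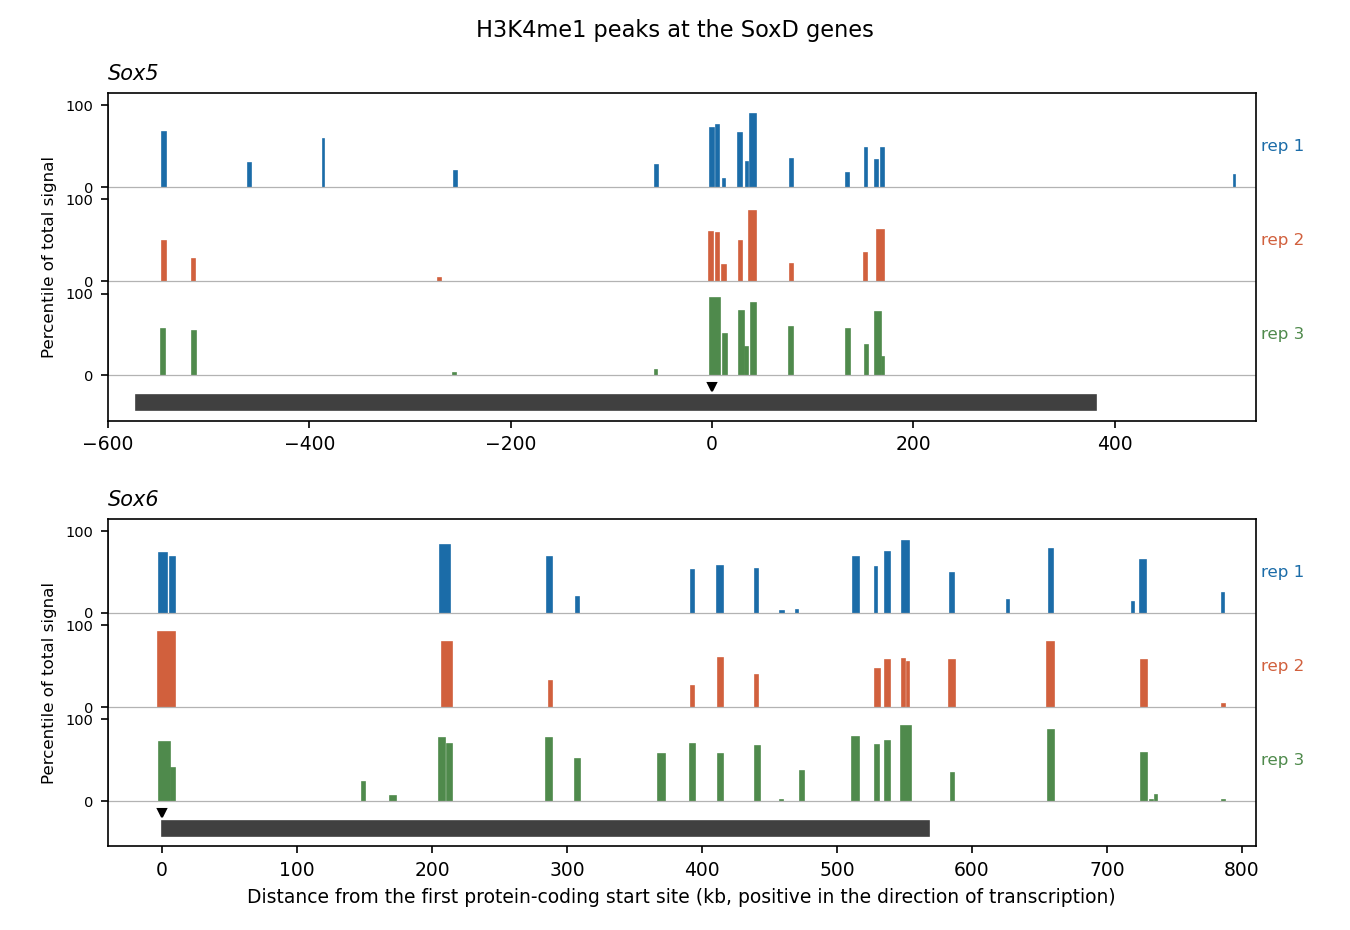
H3K4me1 peaks of Sox5 and Sox6 by distance from the first protein-coding start site (kb, black triangle, positive in the direction of transcription). Each bar is a peak with its width to scale and its height the percentile of total signal (0 to 100) in replicates 1, 2 and 3, and the dark box is the annotated gene. Sox5 peaks gather between the start site and 166 kb, whereas those of Sox6 stand at the start site and from 210 kb to past the 3′ end, with 2 low bars of replicate 3 in between.

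The third SoxD gene, Sox13, was no member but is given for comparison. It had 2, 1 and 0 body peaks and 1, 1 and 0 distal peaks, and none reached its first start site.

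Sox8 encodes the SoxE protein whose loss in mice has the mildest effect of the SoxE genes. The gene (chr17:25565892-25570686, minus strand) is 4.795 kb long. It had 1, 2 and 1 body peaks, which covered 29.1%, 60.5% and 24.7% of its window. Its one body region present in every replicate (chr17:25566179-25573249) stood at percentiles 77.2, 82.7 and 38.1, lowest in replicate 3. An internal start site at 25570214 was under a peak in every replicate. The peak of replicate 2 also reached across the first start site, whereas those of replicates 1 and 3 stopped 206 and 223 bp inside the gene.

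The bases before the first start site are shown because the replicates parted there. The sequence is from RefSeq (GRCm38.p6), minus strand, with no match to the cores named above and 65.6% GC, against a median of 52.4% over the RefSeq promoters.
Sox8 start, chr17:25570687-25570936: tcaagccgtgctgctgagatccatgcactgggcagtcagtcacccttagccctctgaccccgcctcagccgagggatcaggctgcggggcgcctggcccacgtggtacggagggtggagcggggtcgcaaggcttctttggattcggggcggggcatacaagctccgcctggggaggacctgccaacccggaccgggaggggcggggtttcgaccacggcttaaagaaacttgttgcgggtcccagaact

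A distal region of Sox8 14.6 kb downstream of the start (chr17:25554576-25557565), over the noncoding RNA gene AC131323.3, held 1 peak of each replicate at percentiles 77.1, 73.8 and 44.7. Replicate 3 was again lowest. Both regions took a smaller share of the signal of the whole list in replicate 3. For the body region the shares were 0.00656%, 0.0105% and 0.00393% of the summed peak signal in replicates 1, 2 and 3. Tbx1 and Kdm6b were among the genes most like Sox8, at distances of 1.25 and 1.62, so they were less close than the genes named for Sox5.

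Sox9 encodes the SoxE protein that directs cartilage formation. The gene (chr11:112782224-112787760, plus strand) is 5.54 kb long, and its nearest protein-coding start sites on either side are those of Kcnj2, 1716 kb upstream, and Slc39a11, 783.5 kb downstream. Body peaks numbered 2, 2 and 1 and covered 29.6%, 27.98% and 24.2% of its window. A region at the upstream edge (chr11:112776912-112782215) had a peak of every replicate, at percentiles 54.5, 32.6 and 50.1. A second region inside the gene (chr11:112783185-112785541) had peaks in replicates 1 and 2 only, at 45.4 and 16.7. The start site itself was under a peak in 0 of 3 replicates, with the nearest peak edge 1588 and 961 bp downstream in replicates 1 and 2 and 9 bp upstream in replicate 3.

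The signal of Sox9 lay downstream of the gene. Distal peaks numbered 13, 11 and 9, of which 2, 3 and 4 were upstream and 11, 8 and 5 downstream. In the territory of Sox9, which reaches to the midpoint between its start site and the next one (853.0 kb upstream and 381.2 kb downstream of the body window), peaks covered 0.632%, 1.13% and 1.46% of the upstream bases and 11.4%, 9.93% and 7.14% of the downstream bases. Upstream coverage was lower in 3 of 3 replicates, by −8.43 ± 2.58 percentage points (SD, n = 3; exact paired sign-flip permutation test, two-sided, p = 0.25, the smallest p possible). Of 17 distal regions, 5 held a peak of every replicate, all of them 196 to 275 kb downstream, and none of the 7 upstream regions did. With replicate 3 left out, 10 distal regions held a peak of both others. With a peak of all 3 replicates required, 101 protein-coding genes had more than 5 distal regions, and the highest number was 21, at Zfp36l1. A gene with a larger territory has more room for distal regions, and these numbers were not scaled to territory.

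The first regions of the downstream cluster ranked high in each list. The strongest (chr11:113012544-113022682), 235 kb from the start site, reached percentiles 96.8, 97.2 and 96.5 (96.8 ± 0.346, SD, n = 3), with a maximum pileup of 172, 243 and 158. No region of the 5 genes with a peak in every replicate had a higher mean percentile. It alone took 0.0272%, 0.0310% and 0.0229% of the summed signal of the lists. Before it stood chr11:112976102-112980634, 196 kb from the start site, at percentiles 84.9, 83.4 and 82.9, and chr11:112986131-112993387, at 208 kb, with 89.8, 84.6 and 81.3. Beyond it, over the noncoding RNA gene 2610035D17Rik, chr11:113043925-113047855 stood at 69.4, 64.5 and 36.9 and chr11:113055592-113059540, the farthest present in every replicate, at 54.9, 50.2 and 48.1. Ranks were thus lower on both sides of the region at 235 kb.

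Upstream, the regions at 161 and 71.6 kb before the start had peaks in replicates 1 and 2 only. They ranked low, at percentiles 41.9 and 9.92 for the former and 31.9 and 8.18 for the latter. Replicate 3 had 4 upstream peaks of its own, at 841, 478, 369 and 125 kb, of which the highest stood at percentile 46.8.

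The nearest-start rule leaves out part of the interval between Kcnj2 and Slc39a11. In the part nearer to Kcnj2 there were 2, 1 and 4 peaks, and a single region with a peak of every replicate, 1034 kb upstream of Sox9 (chr11:111747119-111749397) at percentiles 35.2, 5.004 and 34.3. On the downstream side, regions at 404 kb (chr11:113179753-113191974; percentiles 93.7, 90.3 and 64.8) and 417 kb (chr11:113197374-113201957; 58.5, 47.2 and 25.6) lay nearer to a start site of Slc39a11. Counted over the whole interval, 8 regions outside the body window held a peak of every replicate, 7 of them downstream. Genes most like Sox9 in coverage and distal number were Pou3f3, Tmem30b and Gm21954. Their distances of 1.10, 1.21 and 1.34 were larger than those of the genes named for Sox5.

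Sox10 encodes the SoxE protein of neural crest derived glia and pigment cells. The gene (chr15:79154908-79165240, minus strand) is 10.3 kb long. It had 2, 2 and 0 body peaks and 2, 1 and 0 distal peaks, so that the list of replicate 3 held none, with its nearest peak 237 kb from the start site. A body peak in replicates 1 and 2 but not in 3 was found for 5.51% of all protein-coding genes, and one in every replicate for 15.5%. The region over the start site (chr15:79163816-79168151) stood at percentiles 50.8 and 59.1 in replicates 1 and 2. The other body region (chr15:79150711-79156139), at 60.2 and 66.0, overlapped Polr2f and cannot be assigned to Sox10 alone. A distal region 11.2 kb upstream (chr15:79174636-79178282) stood at 24.2 and 31.6.

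**Figure D2:**
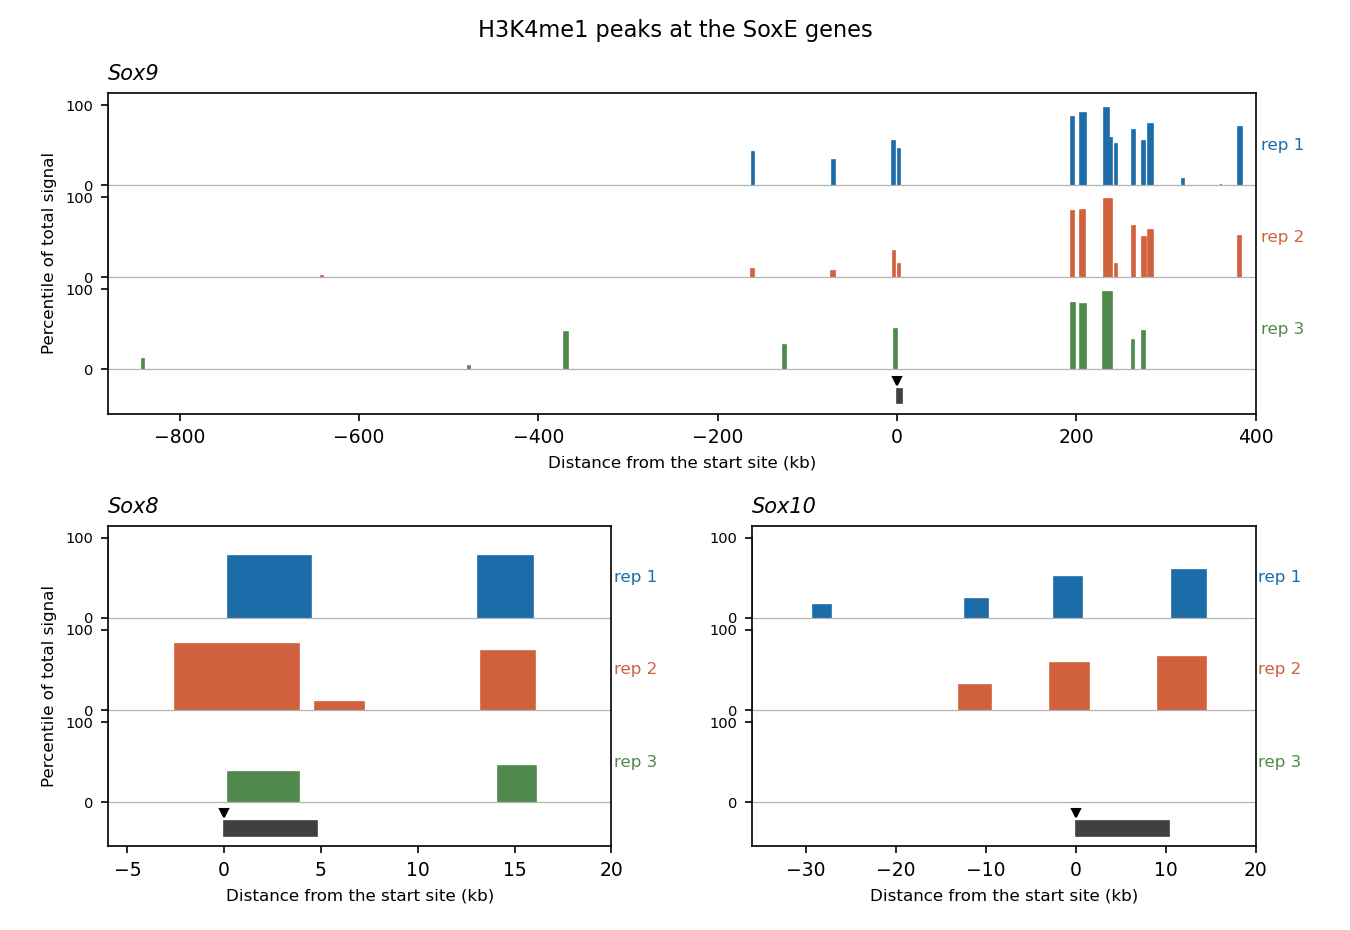
H3K4me1 peaks of Sox9, Sox8 and Sox10 by distance from the start site (kb, black triangle, positive in the direction of transcription), drawn as for the SoxD genes, with bar height the percentile of total signal in each replicate. At Sox9 the bars above percentile 80 in every replicate stand 196 to 235 kb downstream, and the strip of replicate 3 at Sox10 is empty.

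Together, the SoxD genes had 30, 21 and 32 body peaks, and the SoxE genes 5, 6 and 2. Their lengths differ greatly, so coverage was compared as well, but coverage also depends on length. A single peak fills much of the window of a short gene. Among the 230 genes of 500 kb or more, median coverage was 0.384%, and 0, 1 and 0 were covered more than Sox8, Sox9 and Sox10. The comparison therefore cannot tell class and gene length apart. Peaks covered 6.42%, 5.50% and 8.64% of the SoxD windows and 31.2%, 45.5% and 14.6% of the SoxE windows, lower for SoxD in 3 of 3 replicates. The difference was −23.6 ± 17.04 percentage points (SD, n = 3; exact paired sign-flip permutation test, two-sided, p = 0.25, the smallest p possible). It was −15.4 without replicate 2 and −32.4 without replicate 3. Over the gene bodies alone it was −24.4 ± 14.6, again lower for SoxD in 3 of 3 replicates. With 20 kb on each side it was −7.50 ± 8.71, and the replicates no longer had the same sign, at −8.94, −15.4 and 1.84. The median percentile of body peaks was 54.7, 49.3 and 57.7 for SoxD (53.9 ± 4.26) and 54.5, 45.9 and 44.1 for SoxE (48.2 ± 5.58; SD, n = 3). It was higher for SoxD in 3 of 3 replicates, but the ranges of the 2 classes overlapped, and the difference was not tested.

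**Figure D3:**
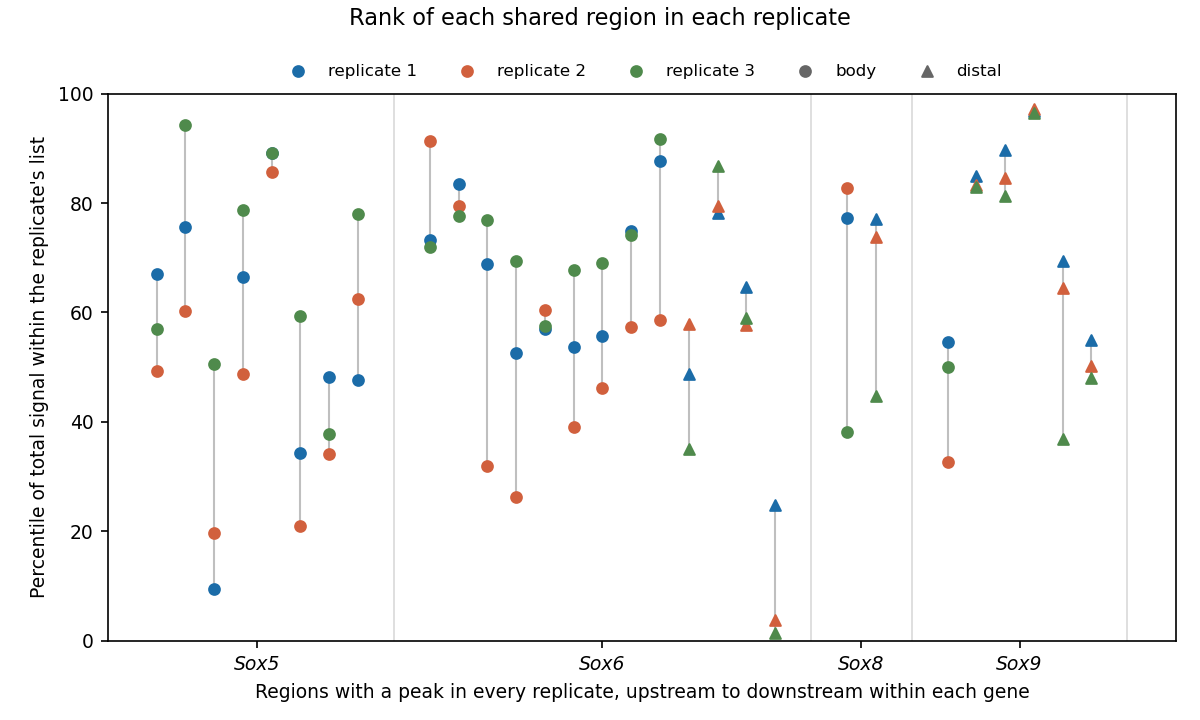
Percentile of total signal (y axis, 0 to 100) of the 29 regions with a peak in every replicate, in upstream to downstream order within each gene. Circles are body regions, triangles distal regions, colours the replicates, and the grey line joins the lowest and highest replicate. The Sox9 region at 235 kb stands at 96.5 to 97.2, whereas at most Sox5 and Sox6 body regions replicate 3 ranks above replicate 2.

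The replicates that held the regions were counted in each class, without the share of all regions for each pattern beside them. The counts therefore do not show whether either class differed from regions at other genes. Of the 42 SoxD regions, 0 had peaks in replicates 1 and 2 only and 7 in replicates 1 and 3 only. Of the 26 SoxE regions, 9 had peaks in replicates 1 and 2 only and 0 in replicates 1 and 3 only. These 9 were 6 regions of Sox9 and 3 of Sox10, with 0 at Sox8, so not every SoxE gene had them. In regions present in every replicate, the log2 ratio of the signal share in replicate 3 to the mean share in replicates 1 and 2 had a median of 0.56 at SoxD genes and −0.31 at SoxE genes, beside 0.12 over all such regions. The GC content of the regions moved with this, with a median of 43.2% at SoxD genes and 51.2% at SoxE genes.

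Over the genome, too, GC content moved with the presence of replicate 3 peaks. Of the regions with peaks in replicates 1 and 2, the share that also had one in replicate 3 went from 99.0% to 38.6% between the lowest and the highest of 10 groups of GC content. Among the SoxD and SoxE regions with peaks in replicates 1 and 2, the 29 with a replicate 3 peak had a median GC content of 44.4% (38.9% to 56.2%) and the 9 without one 53.0% (45.7% to 58.4%). All 3 Sox10 regions among them, at 53.7% to 57.9% GC, fell in the highest 2 groups, where 52.9% and 38.6% of regions had a replicate 3 peak. A few Sox9 regions went the other way. The regions 71.6 kb upstream and 245 kb downstream lacked a replicate 3 peak at 45.9% and 45.7% GC, where 95.5% of regions had one. The part of GC content in these differences was not tested.

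**Figure D4:**
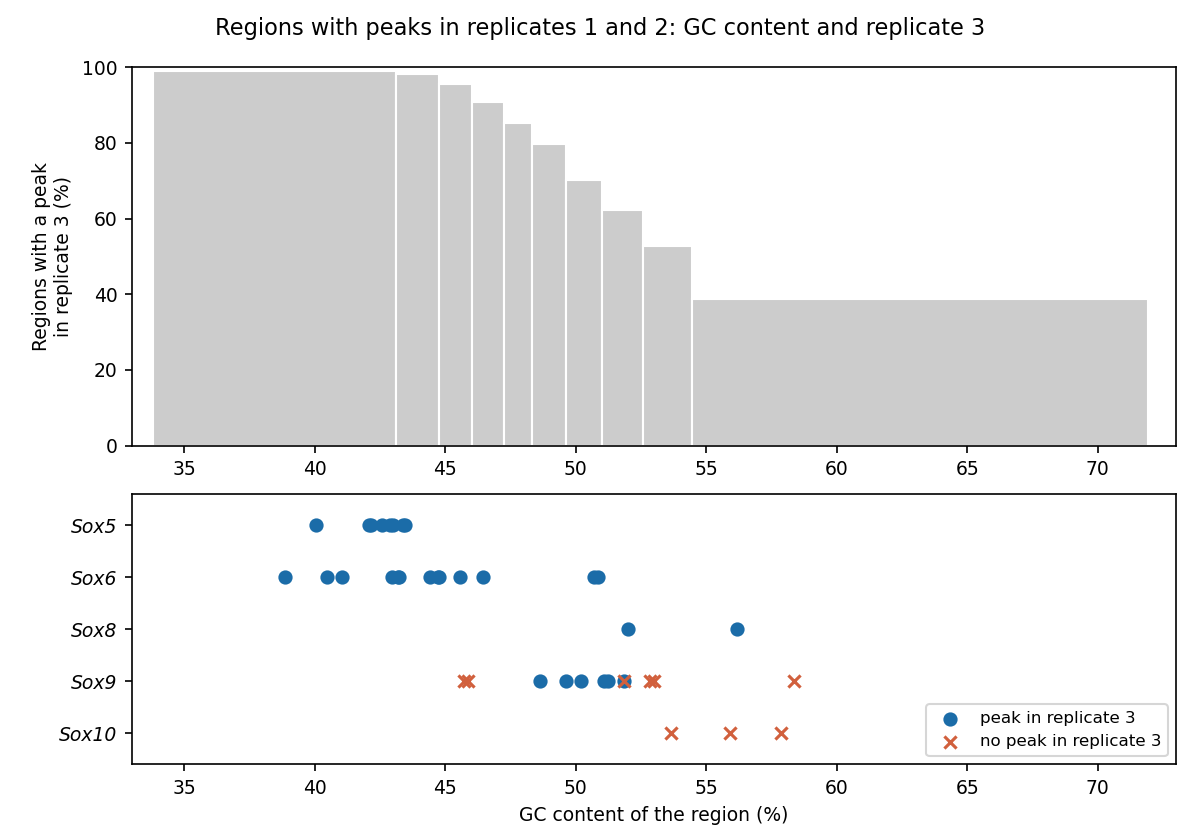
Regions with peaks in replicates 1 and 2 by GC content (x axis, %). The upper panel gives the percentage that also had a peak in replicate 3, in 10 groups of nearly equal number, falling from 99.0% to 38.6%. The lower panel places the 29 and 9 such regions of the 5 genes, with circles for a replicate 3 peak and crosses for none, and all 3 Sox10 regions are crosses above 53% GC.

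Genes that act with or under these factors were counted in the same way, as a description. Of 14 cartilage genes, 11, 9 and 6 had a body peak in replicates 1, 2 and 3, and 5 in every replicate, or 35.7% against 15.5% of all genes. Highest were Col27a1 (mean percentile of the best body peak 94.9 ± 1.22), Col2a1, the main collagen of cartilage (89.8 ± 5.79), and Col9a1 (84.1 ± 2.97; SD, n = 3). Acan and Col11a1, a cartilage proteoglycan and a collagen, had no peak in any replicate.

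Of 12 glial genes, 4, 5 and 3 had a body peak and 3 (25.0%) had one in every replicate, which were Mbp (91.4 ± 3.81) and Pmp22 (82.6 ± 9.39), components of myelin, and Egr2 (35.4 ± 15.4; SD, n = 3). Erbb3, a neuregulin receptor of glia, had peaks in replicates 1 and 2 at percentiles 62.6 and 66.1 and, as at Sox10, none in replicate 3. The glial and crest markers Fabp7 and Foxd3 had none in any replicate. Of 10 pigment cell genes, 1, 0 and 1 had a body peak and none had one in every replicate, with Kit at percentile 4.62 in replicate 1 and Mitf at 23.2 in replicate 3.

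Among the 14 other Sox genes, 7, 9 and 4 had a body peak and 3 (21.4%) had one in every replicate. These were Sox12 at percentiles 76.6, 65.9 and 69.9, Sox11 at 54.5, 36.3 and 59.6, and Sox18 at 72.5, 74.3 and 1.76. Sox18, like Sox8, ranked lowest in replicate 3. Sox1, Sox7, Sox17 and Sox30 had no body peak in any replicate.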

How the data were processed

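H3K4me1 CUT&Tag was done on 3 whisker pads and sequenced as 51 bp paired-end reads. The submitters' processing notes name Bowtie2 2.3, SAMtools 0.1.19, bedtools, SEACR 1.3 and mm10. The authors called peaks per replicate without IgG, in stringent mode, keeping the top 1% of signal blocks, and the deposited lists give total signal and maximum signal as unscaled whole numbers. The number of peaks therefore follows the number of blocks, and the files do not show how deeply each library was sequenced.

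Peaks were assigned to genes of GENCODE vM21 with pandas 2.3.3 and NumPy 2.4.6 (Python 3.11.15). No peak ran past the end of a GRCm38 chromosome. Counting was tested on planted peaks. Replicates were compared as mean ± SD and, for coverage, by exact paired sign-flip permutation, p unadjusted over 3 such comparisons. For each gene the regions over the first start site, the strongest body and distal regions and the farthest distal region present in every replicate were named, with the 3 strongest genes of each list, where strength was the mean percentile. Further names and regions were chosen after their values were seen. The genes, lists and rules were chosen with earlier results of these data known. Sequences came from the GRCm38 genome and RefSeq promoters, which held Sox5, Sox6 and Sox8. The promoters of Sox9 and Sox10 were not analysed here. A few genes that these rules would name are not reported here.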

Additional observations from a re-analysis of the deposited data

How the results depend on the processing

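No paired analysis was possible because the other group with these replicate numbers, the IgG controls, was not analysed here. The sign-flip tests of the report paired values of the same sample. The mean coverage differences between the Sox9 flanks and between SoxD and SoxE kept their sign under every alternative run, but with 20 kb on each side replicate 3 had the opposite sign for SoxD minus SoxE (1.84 percentage points). No alternative was run for Sox6 minus Sox5. Against Sox5 from its first protein-coding start site to its 3′ end, Sox6 coverage was higher in replicate 3 only. No difference could pass a test with 3 replicates. Keeping the stronger 50% of each list left 2 genes with a body peak in every replicate, a mean of 16.3 SoxD and 2.67 SoxE body peaks, 2.33 SoxD and 7 SoxE distal peaks and 3 Sox9 distal regions in every replicate, with median body percentiles, recomputed within the shorter lists, of 32.4 and 15.6. Keeping the strongest 10000 peaks gave 3 SoxD distal peaks and percentiles of 48.7 and 32.3, and the number of peaks kept sets these values in part. By signal per base the percentiles were 45.7 for SoxD and 36.4 for SoxE. With the first start site of each gene alone, SoxD distal peaks fell to a mean of 1.67, as internal Sox6 start sites no longer drew peaks. Over the whole interval between its neighbours Sox9 had 8 distal regions in every replicate.

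With 1 replicate left out, genes with a body peak in every replicate kept numbered 4 to 5 and Sox9 distal regions 5 to 10, the highest without replicate 3. The remaining ranges were 25.5 to 31.0 SoxD body peaks, 3.50 to 5.50 SoxE body peaks, 5 to 6.50 SoxD and 11.5 to 14.5 SoxE distal peaks, and percentiles of 52.0 to 56.2 and 45.0 to 50.2. The Sox9 coverage difference ran from −9.81 to −7.24 and that between SoxD and SoxE from −32.4 to −15.4 percentage points. The lists hold only the strongest blocks, so a missing peak, as at Sox10 in replicate 3, does not show that the mark was absent.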
